A study of Homo sapiens with 8 samples.

Results

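The centromere and kinetochore genes described here are 33 genes chosen by symbol. They encode a set of the lettered CENP proteins and the subunits of the NDC80, MIS12 and SKA complexes. Loading factors of the centromeric histone CENP-A and a few proteins that bind the outer kinetochore and the spindle make up the rest. All 33 were found among the 25337 named genes of the deposited table, and all 33 were among the 12013 genes tested. The libraries were made from NCI-H82 cells, an established human line. It comes from small cell lung cancer, in which the retinoblastoma protein pRB is usually lost. An RB1 construct (pTripZ RB1) in these cells is switched on by doxycycline. The 4 groups held 2 libraries each. These were pRB+ AZD2811 (0.5 µg/mL doxycycline for 96 h, with 32 nM AZD2811 for the last 48 h), pRB+ control (the same doxycycline, with DMSO), pRB- AZD2811 (no doxycycline, with 32 nM AZD2811 for 48 h) and pRB- control (no doxycycline, with DMSO). AZD2811 inhibits Aurora B, a kinase that corrects faulty attachments between kinetochores and microtubules. Since pRB+ cells alone were given doxycycline, the agent and the induced pRB cannot be told apart, and whether the line is 1 clone or a pool is not given in the sources used here.

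The kinetochore is built on the centromere, which is marked by nucleosomes that hold CENP-A in place of ordinary histone H3. A set of CENP proteins called the constitutive centromere-associated network stays bound there through the cell cycle, and in mitosis it carries the KNL1, MIS12 and NDC80 complexes, of which NDC80 grips the microtubule. Many of these genes are transcribed mainly in the later part of the cell cycle, and pRB is best known as a repressor of the E2F factors that drive cell cycle genes.

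Values are FPKM, fragments per length of transcript and library size, rescaled between libraries and called scaled FPKM below. RB1 itself stood at 7.67 and 6.36 scaled FPKM in the pRB+ AZD2811 libraries, 7.36 and 7.56 in pRB+ control, 0.941 and 0.95 in pRB- AZD2811 and 0.872 and 0.801 in pRB- control, so each library matched the pRB part of its label. NEUROD1, a neuroendocrine marker, was between 74.8 and 111 scaled FPKM, and the 4 fibroblast and blood markers were all below the mean of 1 scaled FPKM needed for testing. Depth, read from the steps of low values, was 23300000 to 33700000 fragments per library, which gives a counting error of 14.07% to 16.92% at 1 FPKM in a gene of 1500 nucleotides. Of the 8 libraries, 3 were rich in RNA without poly(A) tails: the first pRB+ AZD2811 library, the second pRB+ control library and the first pRB- AZD2811 library held 5792 to 14003 scaled FPKM of RMRP, the RNA of the RNase MRP particle, against 21.2 to 165 in the other 5.

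Most of these genes were lower with pRB. Over control and AZD2811 together, with 4 libraries per arm, 11 of the 33 fell and 1 rose in pRB+ cells (limma, Benjamini-Hochberg adjusted p under 0.05 over all 12013 genes). Over all genes tested, 5.81% fell and 5.34% rose. The genes that fell were NUSAP1, CENPA, HJURP, SPC24, PMF1, SPAG5, CENPH, NUF2, CENPW, DSN1 and CENPN, and the gene that rose was SKA3. At an unadjusted p under 0.05 there were 21 lower and 1 higher, where 16.9% of all genes were lower. In 10 genes every pRB+ library lay below every pRB- library, and in 1 every pRB+ library lay above. Over all genes those shares were 11.2% and 10.7%. The median log2 fold change of the 33 genes, pRB+ over pRB-, was -0.21, against -0.0083 for all genes tested. Of the 33, 28 had a value below 0, against 51.95% of all genes, and with any one library left out the number was 29 in each of the 8 cases. In bulk RNA, fewer cells in the phases that use these genes and less RNA per cell cannot be told apart.

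The fold changes held when a library was left out, but most such fits lost the calls. With any one library left out, the median of the 33 genes lay between -0.24 and -0.18, and over 20 alternative fits the log2 fold changes of CENPA and NUSAP1 each lay between -0.54 and -0.45. None of the 33 passed the test when replicate 1 of any of the 4 groups, or replicate 2 of pRB- control, was left out, although 16 to 21 were still lower at an unadjusted p under 0.05, and only 1 or 2 genes of the whole table passed in those fits. Leaving out replicate 2 of the other groups gave 14 calls (pRB+ AZD2811), 7 calls (pRB+ control) and 8 calls (pRB- AZD2811). Within library types, 24 of 33 genes were lower in the 2 pRB+ libraries rich in RNA without poly(A) tails than in the 1 such pRB- library, with a median log2 difference of -0.15. Among the other libraries, 2 pRB+ and 3 pRB-, 30 of 33 were lower, with a median of -0.21. Treatment is mixed into both differences. The rich pRB- library was treated with AZD2811, and the other pRB- libraries were mostly controls, while each pRB+ set held both treatments. No share of all genes was taken for these counts.

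**Figure D1:**
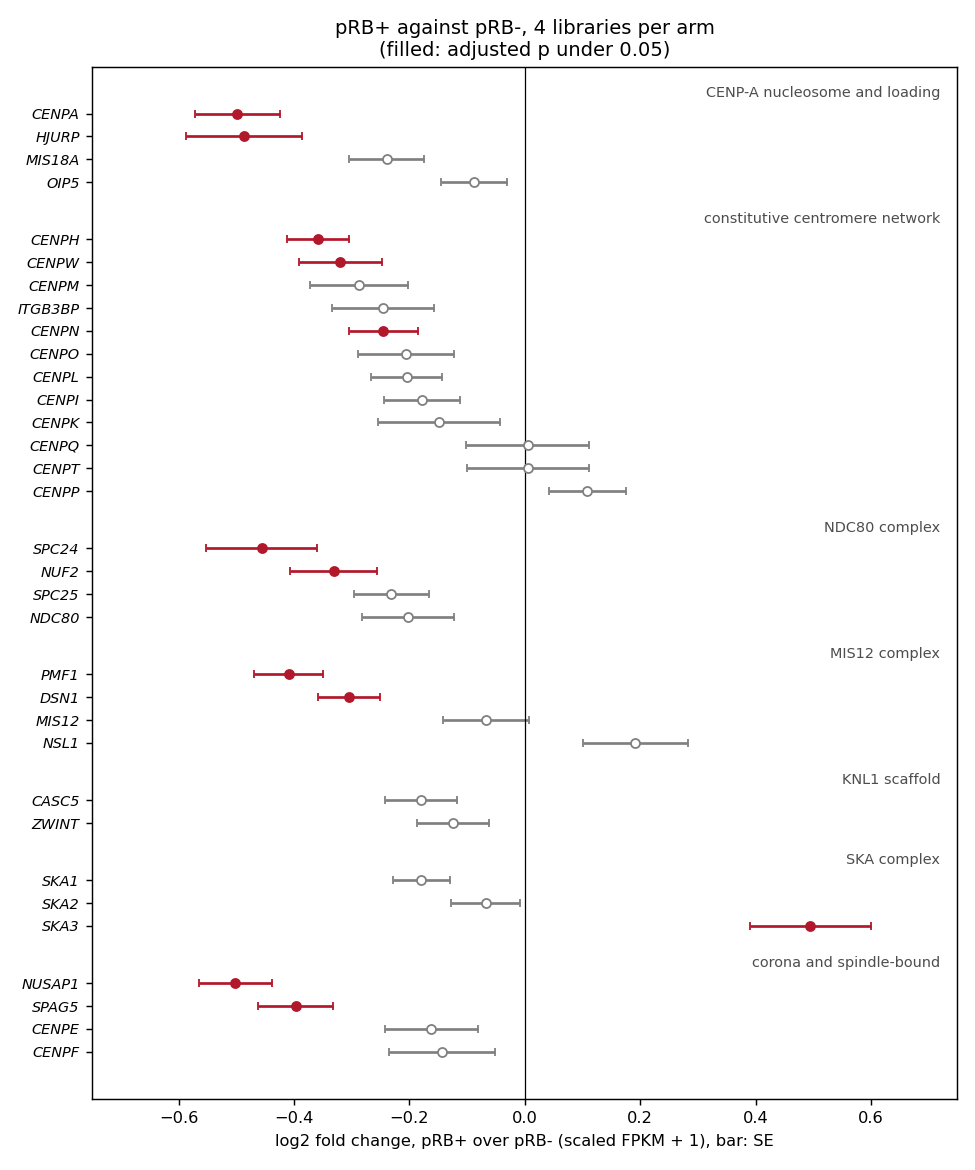
Log2 fold change of each of the 33 genes, pRB+ over pRB- (horizontal axis, log2 of scaled FPKM plus 1), with bars of 1 SE from a fit of 4 libraries per arm; filled red points passed an adjusted p of 0.05 and open grey points did not. NUSAP1 and CENPA lie near -0.50 and SKA3 alone lies to the right among the filled points, at 0.50.

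Promoters of the genes whose data carry this pattern are shown because pRB is best known as a repressor of E2F factors. Those factors bind promoters of cell cycle genes. Background knowledge names 3 elements of such promoters: the E2F site, the CCAAT box and the cell cycle genes homology region, or CHR. The CCAAT box is bound by NF-Y, and the CHR by complexes that hold the MuvB proteins. The 200 bases upstream of the RefSeq start on GRCh38.p14 are given 5′ to 3′ along the gene, for CENPA (chr2:26785856-26786055, + strand), HJURP (chr2:233854536-233854735, - strand), SPC24 (chr19:11155783-11155982, - strand), PMF1 (chr1:156212807-156213006, + strand), NUSAP1 (chr15:41332681-41332880, + strand) and SKA3 (chr13:21176553-21176752, - strand). Capitals mark a CHR, for which the letters TTTGAA were searched as well as the variant TTCGAA. They also mark a CCAAT box, searched by the letters of its name, and an E2F-like element, searched as TTTGGCGC, TTTCCCGC, TTTCGCGC or TTTGCCGC. Each was read on either strand, and a CCAAT box on the other strand shows as ATTGG.
CENPA: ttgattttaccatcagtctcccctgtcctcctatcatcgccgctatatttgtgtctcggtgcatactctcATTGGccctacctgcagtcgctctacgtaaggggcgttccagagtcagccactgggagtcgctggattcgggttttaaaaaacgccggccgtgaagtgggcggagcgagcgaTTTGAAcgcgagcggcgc
HJURP: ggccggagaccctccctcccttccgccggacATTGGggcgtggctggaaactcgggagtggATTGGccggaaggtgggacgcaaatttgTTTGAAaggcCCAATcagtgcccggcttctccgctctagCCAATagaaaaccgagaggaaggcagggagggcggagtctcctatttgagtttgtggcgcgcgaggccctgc
SPC24: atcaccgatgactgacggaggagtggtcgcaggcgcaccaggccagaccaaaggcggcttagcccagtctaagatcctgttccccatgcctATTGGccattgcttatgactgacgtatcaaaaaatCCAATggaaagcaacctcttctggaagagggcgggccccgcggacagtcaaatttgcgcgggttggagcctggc
PMF1: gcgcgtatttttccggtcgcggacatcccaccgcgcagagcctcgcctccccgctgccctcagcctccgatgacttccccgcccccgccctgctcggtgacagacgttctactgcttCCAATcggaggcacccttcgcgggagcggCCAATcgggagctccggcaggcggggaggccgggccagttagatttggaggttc
NUSAP1: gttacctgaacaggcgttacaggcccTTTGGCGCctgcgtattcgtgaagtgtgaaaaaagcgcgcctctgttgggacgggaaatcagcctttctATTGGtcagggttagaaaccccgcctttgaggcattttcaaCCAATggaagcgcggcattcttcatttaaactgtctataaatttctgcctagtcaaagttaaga
SKA3: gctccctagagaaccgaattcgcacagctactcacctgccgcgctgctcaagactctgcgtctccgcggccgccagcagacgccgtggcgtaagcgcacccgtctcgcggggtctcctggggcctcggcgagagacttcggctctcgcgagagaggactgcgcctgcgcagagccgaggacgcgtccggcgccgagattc

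In the printed bases, CENPA shows a reversed CCAAT box and, at position -18 from the start base, a CHR. HJURP shows a CHR at position -111 amid 4 CCAAT boxes, while SPC24 and PMF1 show CCAAT boxes and no CHR. NUSAP1 shows an E2F-like element and a pair of CCAAT boxes, and its CHR begins past the start, at position 13. SKA3, the gene that rose, shows no capitals: its CHR begins at position -3 and runs across the start, and no CCAAT box or E2F-like element was found in its window. RefSeq promoters of 250 bases before to 50 after the start were matched for 28 of the 33 genes, the others being MIS18A, CENPH, CENPL, CENPM and CASC5. A CHR was present in 15 of the 28 (53.57%), against 16.35% of 35116 promoters in the table, and a CCAAT box in 15 of the 28, against 34.61%. Both together were present in 9 (32.14%), against 6.376% of all promoters, and an E2F-like element in 4 (14.29%), against 3.315%. The windows of OIP5, which did not pass the test, and NUSAP1, which fell, overlap on opposite strands. The same E2F-like element and the same CCAAT boxes were therefore counted for both genes. Among the 10 matched genes that fell, 7 held a CHR and 7 a CCAAT box. A match describes the letters of the window and shows no binding.

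Of the 4 genes of the CENP-A nucleosome and its loading, CENPA and HJURP fell, and MIS18A and OIP5 did not pass the test. CENPA, the centromeric histone itself, stood at 15.4 and 18.1 scaled FPKM in pRB+ AZD2811 libraries, 17.2 and 20.0 in pRB+ control, 25.01 and 23.01 in pRB- AZD2811 and 27.8 and 25.5 in pRB- control. HJURP, the chaperone that carries CENP-A to the centromere, stood at 21.3 and 18.9 in pRB+ AZD2811, 19.5 and 24.1 in pRB+ control, 32.2 and 24.7 in pRB- AZD2811 and 32.4 and 29.9 in pRB- control. Every pRB+ library was below every pRB- library for both genes, although the highest pRB+ and the lowest pRB- library of HJURP differed little, at 24.1 and 24.7. CENPA averaged 17.7 ± 1.94 in pRB+ and 25.3 ± 1.97 in pRB- libraries (SD, n = 4 each), a log2 fold change of -0.50 ± 0.07 (SE; limma, adjusted p = 0.0247). HJURP averaged 20.9 ± 2.32 in pRB+ and 29.8 ± 3.61 in pRB- libraries, a log2 fold change of -0.49 ± 0.10 (limma, adjusted p = 0.0319).

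MIS18A and OIP5 are subunits of the Mis18 complex, which prepares the centromere for new CENP-A. MIS18A stood at 23.8 and 28.0 in pRB+ AZD2811, 28.96 and 30.2 in pRB+ control, 28.4 and 31.0 in pRB- AZD2811 and 37.5 and 35.1 in pRB- control, and its groups overlapped through the pRB- AZD2811 libraries. Its log2 fold change of -0.24 ± 0.06 just missed the threshold (limma, adjusted p = 0.0552). OIP5 stood at 18.3 and 18.3 in pRB+ AZD2811, 20.8 and 18.2 in pRB+ control, 20.0 and 20.4 in pRB- AZD2811 and 19.2 and 21.0 in pRB- control, a log2 fold change of -0.09 ± 0.06 (limma, adjusted p = 0.325). OIP5 varied least among these 4 genes.

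OIP5 and NUSAP1 lie head to head on chromosome 15, with RefSeq starts at 41332591 and 41332881 on GRCh38.p14 and 289 bases between them. The NUSAP1 promoter printed above therefore runs through the stretch they share. The ratio of NUSAP1 to OIP5, which no rescaling between libraries can change, was 4.38 and 4.62 in pRB+ AZD2811, 3.999 and 5.34 in pRB+ control, 5.94 and 5.45 in pRB- AZD2811 and 7.03 and 5.995 in pRB- control. All pRB+ ratios lay below all pRB- ratios, with means of 4.59 ± 0.563 and 6.11 ± 0.665 (SD, n = 4 each).

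**Figure D2:**
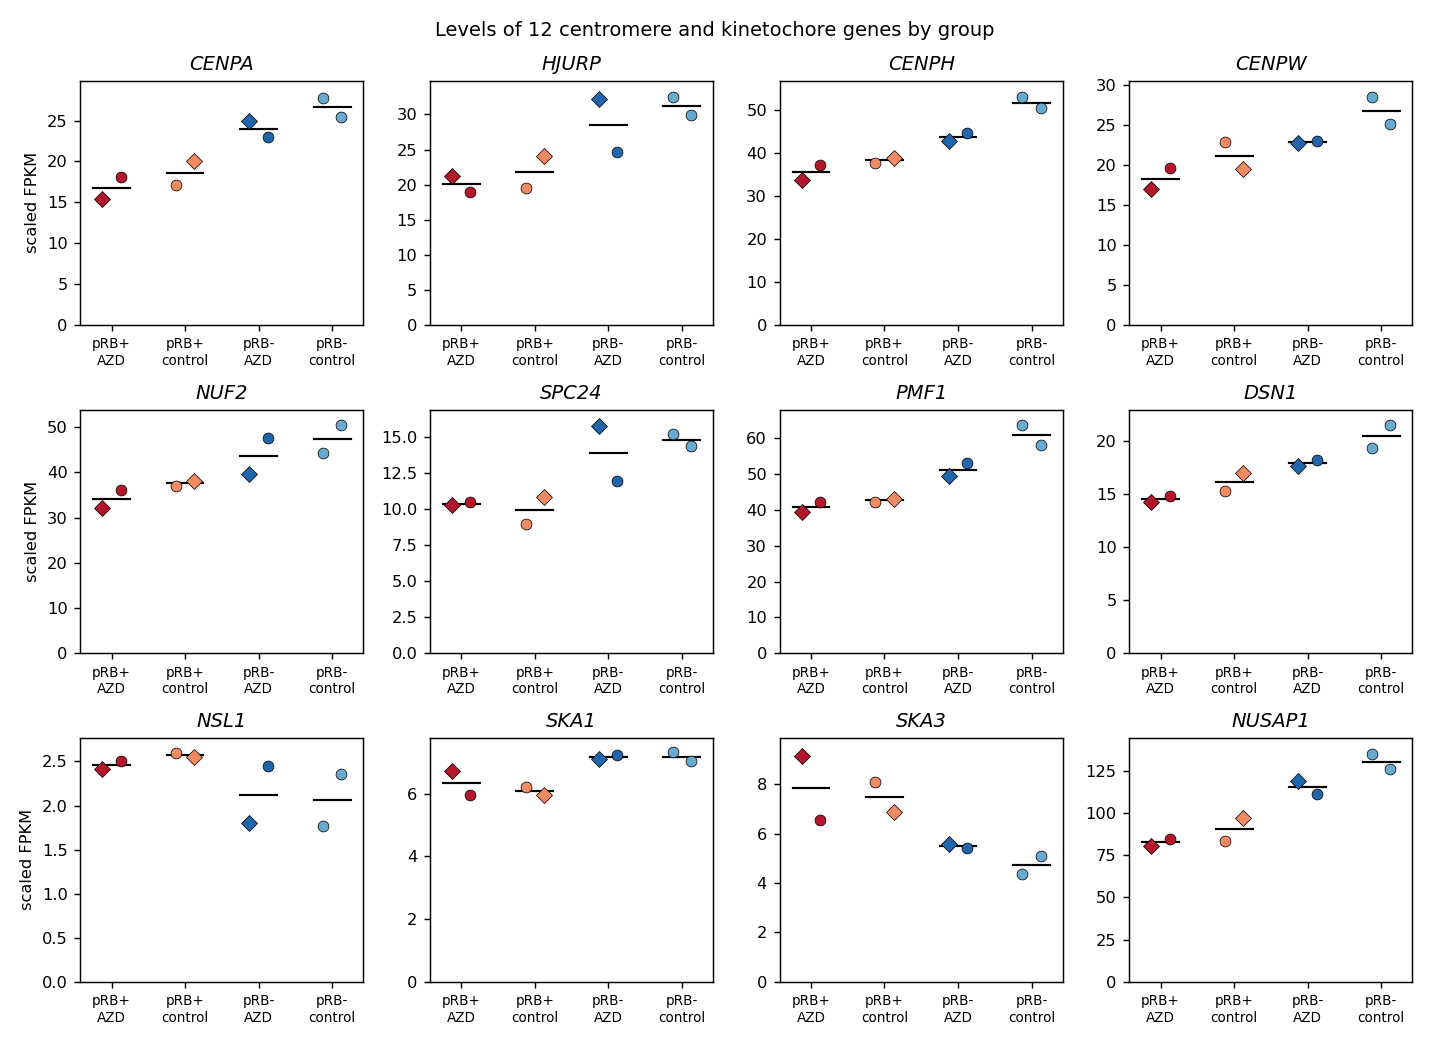
Scaled FPKM (vertical axes, from 0) of 12 genes in each library of the 4 groups, with horizontal lines at group means of 2; diamonds are the 3 libraries rich in RNA without poly(A) tails, circles the other 5, and AZD stands for AZD2811. CENPA, PMF1 and NUSAP1 show every pRB+ library below every pRB- library, and SKA3 shows the opposite order, with pRB+ libraries between 6.57 and 9.17.

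In the constitutive centromere network, 3 of 12 genes fell, CENPH, CENPW and CENPN, and none rose, while 8 of the 12 were lower at an unadjusted p under 0.05. CENPH, which joins CENP-I and CENP-K in one subcomplex, stood at 33.8 and 37.2 scaled FPKM in pRB+ AZD2811, 37.7 and 38.8 in pRB+ control, 42.7 and 44.6 in pRB- AZD2811 and 53.0 and 50.4 in pRB- control. The 4 group means kept that order, from 35.5 in pRB+ AZD2811 through 38.2 in pRB+ control and 43.7 in pRB- AZD2811 to 51.7 in pRB- control, and the pRB+ and pRB- libraries did not overlap. Its log2 fold change was -0.36 ± 0.05 (limma, adjusted p = 0.0247). CENPI and CENPK, its partners, did not pass the test, with log2 fold changes of -0.18 ± 0.07 and -0.15 ± 0.11.

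CENPW, a histone-fold protein that pairs with CENP-T, stood at 17.0 and 19.6 in pRB+ AZD2811, 22.8 and 19.5 in pRB+ control, 22.8 and 23.05 in pRB- AZD2811 and 28.5 and 25.1 in pRB- control. Its highest pRB+ and lowest pRB- libraries met at 22.8, and the log2 fold change was -0.32 ± 0.07 (limma, adjusted p = 0.0367). CENPT, its partner, averaged 11.9 ± 1.31 in pRB+ and 11.9 ± 1.46 in pRB- libraries (SD, n = 4 each), a log2 fold change of 0.01 ± 0.11 (limma, adjusted p = 0.977). The difference between CENPW and CENPT was not tested. CENPN, which reads the CENP-A nucleosome together with CENP-L, stood at 8.55 and 9.48 in pRB+ AZD2811, 10.2 and 9.83 in pRB+ control, 9.88 and 11.1 in pRB- AZD2811 and 13.0 and 11.95 in pRB- control. The groups overlapped for CENPN, and its log2 fold change of -0.25 ± 0.06 passed the test by little (limma, adjusted p = 0.043). In GENCODE 29, 14.48% of its exon bases lie opposite CMC2 on the other strand, and the strand setting of the authors' counting is not given in the sources used here.

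The other 9 genes of the network did not pass the test. CENPM at -0.29 ± 0.08, ITGB3BP (CENP-R) at -0.25 ± 0.09, CENPO at -0.21 ± 0.08 and CENPL at -0.21 ± 0.06 had negative log2 fold changes with overlapping groups. CENPP, at 0.11 ± 0.07, and CENPQ, at 0.00497 ± 0.11, belong with CENP-O to one subcomplex. CENPP was also among the lowest expressed of the 33 genes, at 2.36 ± 0.21 scaled FPKM over all libraries (SD, n = 8), and 30.16% of its exon bases lie opposite IPPK, so the 2 genes' reads could mix where strand was not used.

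All 4 subunits of the NDC80 complex had negative log2 fold changes, each with an unadjusted p under 0.05, and SPC24 and NUF2 fell. The complex is a long rod: NDC80 and NUF2 form the end that holds the microtubule, and SPC24 and SPC25 the end that sits on the kinetochore. SPC24 stood at 10.3 and 10.5 in pRB+ AZD2811, 8.98 and 10.9 in pRB+ control, 15.8 and 11.96 in pRB- AZD2811 and 15.2 and 14.3 in pRB- control. NUF2 stood at 32.2 and 36.1 in pRB+ AZD2811, 37.1 and 38.1 in pRB+ control, 39.6 and 47.7 in pRB- AZD2811 and 44.4 and 50.4 in pRB- control. Neither gene's pRB+ libraries reached its pRB- libraries, and the log2 fold changes were -0.46 ± 0.10 for SPC24 (limma, adjusted p = 0.0325) and -0.33 ± 0.08 for NUF2 (limma, adjusted p = 0.0374).

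SPC25 stood at 15.02 and 14.5 in pRB+ AZD2811, 17.4 and 16.7 in pRB+ control, 15.2 and 18.2 in pRB- AZD2811 and 21.3 and 21.2 in pRB- control. NDC80 stood at 8.58 and 9.83 in pRB+ AZD2811, 9.84 and 9.56 in pRB+ control, 9.01 and 11.3 in pRB- AZD2811 and 11.9 and 12.1 in pRB- control. In both genes pRB- AZD2811 replicate 1 lay among the pRB+ libraries, and the log2 fold changes of -0.23 ± 0.06 and -0.20 ± 0.08 did not pass the test (limma, adjusted p = 0.0602 and 0.128). The ratios of all 6 pairs among the 4 genes overlapped between pRB+ and pRB- libraries. For SPC25 over NDC80 the ratio averaged 1.68 ± 0.139 in pRB+ and 1.71 ± 0.0738 in pRB- libraries (SD, n = 4 each), and for NUF2 over NDC80 it averaged 3.80 ± 0.136 and 4.12 ± 0.287.

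The MIS12 complex, the platform that joins the centromere to NDC80 and KNL1, held 2 genes that fell, PMF1 and DSN1, while MIS12 and NSL1 did not pass the test. PMF1 stood at 39.4 and 42.2 in pRB+ AZD2811, 42.2 and 43.1 in pRB+ control, 49.4 and 53.0 in pRB- AZD2811 and 63.5 and 58.0 in pRB- control. DSN1 stood at 14.2 and 14.9 in pRB+ AZD2811, 15.3 and 17.0 in pRB+ control, 17.6 and 18.3 in pRB- AZD2811 and 19.4 and 21.5 in pRB- control. For both genes the pRB+ libraries lay below all pRB- libraries, and the pRB- control libraries were the highest. The log2 fold changes were -0.41 ± 0.06 for PMF1 (limma, adjusted p = 0.0247) and -0.30 ± 0.05 for DSN1 (limma, adjusted p = 0.0266).

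PMF1 shares 587 of its 1194 exon bases in GENCODE 29 with the readthrough gene PMF1-BGLAP, so the authors' method had to divide those reads. PMF1-BGLAP held 3.91 to 6.89 scaled FPKM in pRB+ libraries and 4.86 to 6.39 in pRB- libraries, with overlapping groups.

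NSL1, another MIS12 subunit, stood at 2.41 and 2.51 in pRB+ AZD2811, 2.59 and 2.55 in pRB+ control, 1.80 and 2.45 in pRB- AZD2811 and 1.76 and 2.36 in pRB- control. Over all libraries it was the lowest expressed of the 33 genes, and its log2 fold change of 0.19 ± 0.09 had the opposite sign to PMF1 without passing the test (limma, adjusted p = 0.193). MIS12 averaged 11.9 ± 0.562 in pRB+ and 12.6 ± 1.27 in pRB- libraries (SD, n = 4 each), with overlapping groups. The ratio of PMF1 to NSL1 was 16.4 and 16.8 in pRB+ AZD2811, 16.3 and 16.9 in pRB+ control, 27.4 and 21.7 in pRB- AZD2811 and 36.1 and 24.5 in pRB- control. The 4 pRB+ ratios were close together and lay below all 4 pRB- ratios. The ratios of PMF1 to MIS12, DSN1 to NSL1 and MIS12 to NSL1 also did not overlap and were lower in pRB+ cells, while PMF1 to DSN1 and DSN1 to MIS12 overlapped.

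**Figure D3:**
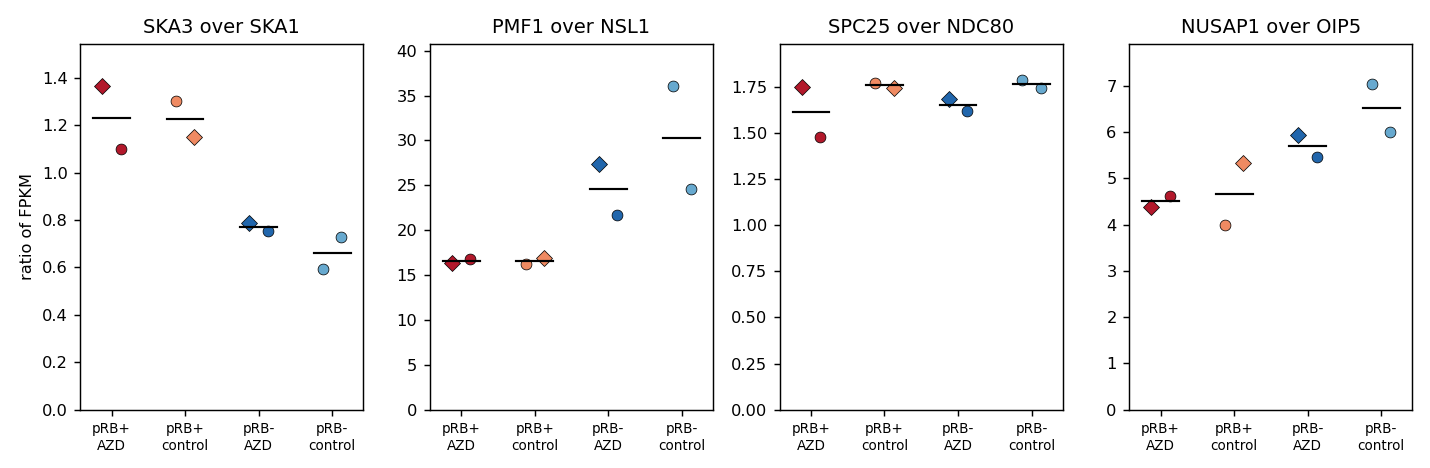
Ratio of FPKM of 2 genes (vertical axes, from 0) in each library of the 4 groups, with lines at group means; diamonds are the 3 libraries rich in RNA without poly(A) tails, and AZD stands for AZD2811. SKA3 over SKA1 was higher and PMF1 over NSL1 and NUSAP1 over OIP5 were lower in every pRB+ library, while SPC25 over NDC80 overlapped.

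Neither gene of the KNL1 scaffold passed the test. CASC5, the older symbol of KNL1, which recruits the checkpoint kinase BUB1, stood at 5.38 and 4.71 in pRB+ AZD2811, 5.04 and 5.25 in pRB+ control, 6.31 and 5.37 in pRB- AZD2811 and 5.88 and 6.07 in pRB- control. The highest pRB+ library, at 5.38, was just above the lowest pRB- library, at 5.37, and the log2 fold change was -0.18 ± 0.06 (limma, adjusted p = 0.097). ZWINT, which binds KNL1, stood at 32.2 and 32.8 in pRB+ AZD2811, 36.7 and 31.5 in pRB+ control, 33.5 and 34.7 in pRB- AZD2811 and 40.5 and 36.8 in pRB- control, a log2 fold change of -0.12 ± 0.06 (limma, adjusted p = 0.213).

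The SKA complex, which helps kinetochores stay on the shrinking ends of microtubules, held the gene that rose. SKA3 stood at 9.17 and 6.57 in pRB+ AZD2811, 8.10 and 6.87 in pRB+ control, 5.60 and 5.44 in pRB- AZD2811 and 4.37 and 5.12 in pRB- control. All 4 pRB+ libraries lay above all 4 pRB- libraries. SKA3 averaged 7.68 ± 1.197 in pRB+ and 5.13 ± 0.548 in pRB- libraries (SD, n = 4 each), 49.6% higher, with a log2 fold change of 0.50 ± 0.10 (limma, adjusted p = 0.0328). The call was lost in 11 of 20 alternative fits, pRB+ control replicate 2 or pRB- AZD2811 replicate 2 left out among them, while the log2 fold change ranged from 0.43 to 0.59. SKA3 was thus called in 9 of the 20, as were CENPW, CENPN and NUF2 among the genes that fell. The other genes that fell were called in 10 (SPC24), 11 (HJURP) or 12 of the 20.

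SKA1, by contrast, stood at 6.73 and 5.97 in pRB+ AZD2811, 6.23 and 5.97 in pRB+ control, 7.10 and 7.23 in pRB- AZD2811 and 7.34 and 7.03 in pRB- control. Every pRB+ library lay below every pRB- library, but the log2 fold change of -0.18 ± 0.05 did not pass the test (limma, adjusted p = 0.0579). SKA2 stood at 22.3 and 21.5 in pRB+ AZD2811, 22.4 and 20.4 in pRB+ control, 20.7 and 23.7 in pRB- AZD2811 and 22.8 and 23.9 in pRB- control, with overlapping groups, and reads of its pseudogene SKA2P1 could be counted with it. The ratio of SKA3 to SKA1 was 1.36 and 1.099 in pRB+ AZD2811, 1.301 and 1.15 in pRB+ control, 0.79 and 0.752 in pRB- AZD2811 and 0.595 and 0.728 in pRB- control. SKA3 was therefore the more abundant of the pair in every pRB+ library and the less abundant in every pRB- library, per length of transcript. The ratio of SKA3 to SKA2 likewise did not overlap, with means of 0.354 ± 0.0444 in pRB+ and 0.227 ± 0.0331 in pRB- libraries (SD, n = 4 each). Of the 15 subunit ratios taken within the NDC80, MIS12 and SKA complexes, 6 did not overlap, 4 in MIS12 and 2 in SKA. These 6 are not independent. Both SKA ratios hold SKA3, and the MIS12 ratios other than PMF1 to MIS12 hold NSL1. The ratio of SKA3 to SKA1 could not overlap, since SKA3 lay higher and SKA1 lower in every pRB+ library, so it adds nothing to the single genes. Among single genes tested, 11.2% were lower and 10.7% higher without overlap, and no such share was taken for other pairs of genes.

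NUSAP1 and SPAG5 fell among the 4 proteins of the corona and the spindle, and CENPE and CENPF did not pass the test. NUSAP1, which binds spindle microtubules near chromosomes, stood at 80.4 and 84.7 in pRB+ AZD2811, 83.3 and 97.2 in pRB+ control, 119 and 111 in pRB- AZD2811 and 135 and 126 in pRB- control. It was the most abundant of the 33 genes in both arms, and its groups were well apart. NUSAP1 averaged 86.4 ± 7.41 in pRB+ and 123 ± 9.90 in pRB- libraries (SD, n = 4 each), 29.6% lower, a log2 fold change of -0.50 ± 0.06 (limma, adjusted p = 0.0238). In GENCODE 29, 72.82% of its exon bases also belong to AC087721.2 on the same strand, so how the authors' annotation treats that locus could change its level. SPAG5, or astrin, which joins SKAP to steady attached kinetochores, stood at 32.0 and 32.4 in pRB+ AZD2811, 31.6 and 34.9 in pRB+ control, 45.4 and 39.3 in pRB- AZD2811 and 47.0 and 42.1 in pRB- control. Its groups did not overlap either, and its log2 fold change was -0.40 ± 0.06 (limma, adjusted p = 0.0258).

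CENPE, the kinesin that moves chromosomes toward the spindle equator, stood at 6.32 and 5.63 in pRB+ AZD2811, 6.21 and 6.69 in pRB+ control, 7.86 and 6.56 in pRB- AZD2811 and 6.35 and 7.58 in pRB- control. CENPF, a large protein of the outer kinetochore, averaged 37.1 ± 2.89 in pRB+ and 41.1 ± 4.45 in pRB- libraries (SD, n = 4 each). Both overlapped between arms, with log2 fold changes of -0.16 ± 0.08 and -0.14 ± 0.09 (limma, adjusted p = 0.207 and 0.318).

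**Figure D4:**
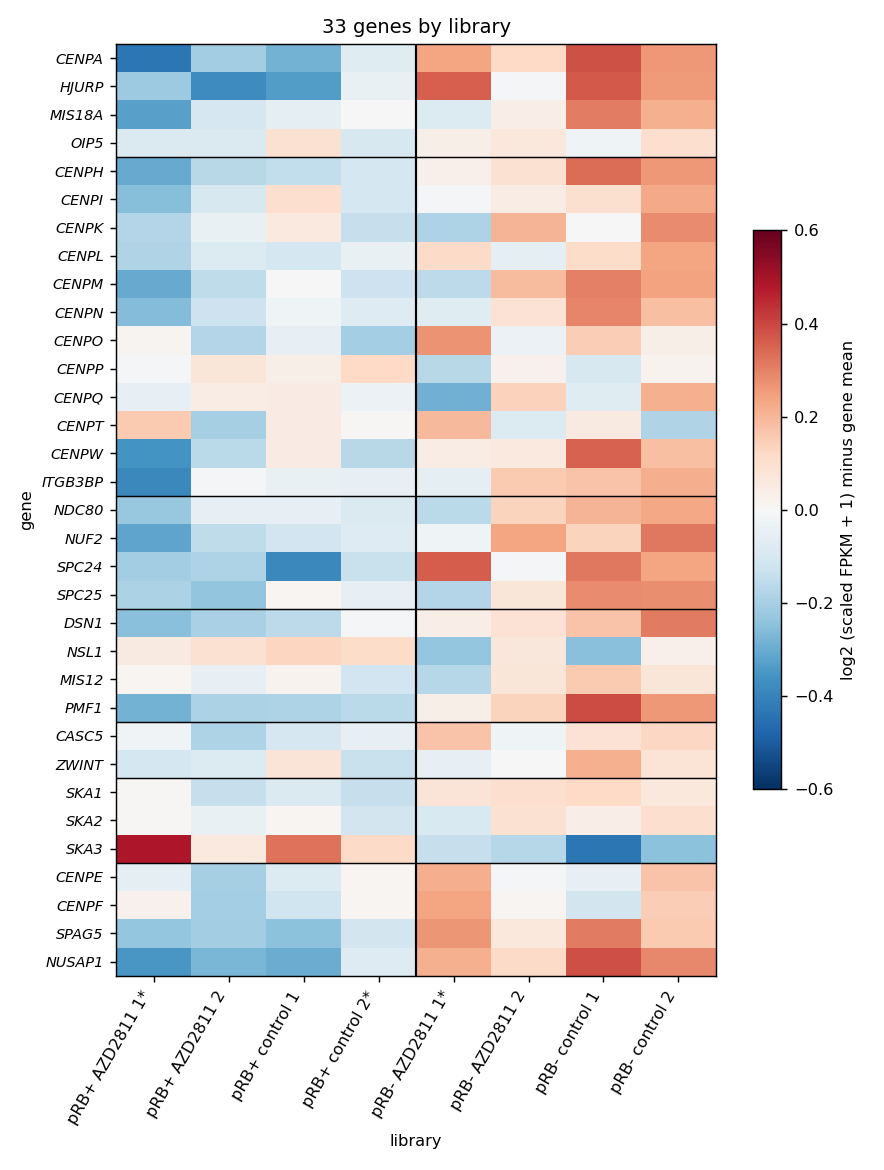
Deviation of each of the 33 genes (rows, grouped by role with lines between roles) from its own mean over 8 libraries (columns), in log2 of scaled FPKM plus 1; blue is below and red above the mean, a vertical line parts pRB+ from pRB-, and an asterisk marks the 3 libraries rich in RNA without poly(A) tails. Most rows are blue in pRB+ and red in pRB-, SKA3 is reversed, and pRB- AZD2811 replicate 1 holds both colours.

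The comparisons within each treatment had 2 libraries per group and made no call among the 33 genes. In control cells 0 genes passed, where 0.0666% of all genes did. At an unadjusted p under 0.05, 17 of the 33 were lower and 1 higher in pRB+ control cells, where 10.1% and 9.25% of all genes were. Leaving out pRB+ control replicate 1 or 2 brought the 17 to 10 or 8, and leaving out pRB- control replicate 1 or 2 brought it to 9 or 10. The median log2 fold change was -0.24, with 29 of 33 below 0, against -0.012 and 52.25% for all genes tested. Under AZD2811 again 0 passed (0.00832% of all genes), with 10 lower and 1 higher at an unadjusted p under 0.05 (6.46% and 5.84% of all genes). The median there was -0.19 (0.10 on FPKM as deposited), with 28 of 33 below 0. For all genes tested it was -0.0040, with 51.04% below 0. The 10 became 6 without replicate 1 of pRB+ AZD2811. SKA3 was the gene on the higher side in both. CENPA had a log2 fold change of -0.50 ± 0.11 in either treatment, NUSAP1 of -0.53 ± 0.10 in control and -0.48 ± 0.10 under AZD2811, and SKA3 of 0.56 ± 0.16 in control and 0.43 ± 0.16 under AZD2811. These comparisons share no library with each other, and both are parts of the comparison of 4 against 4. Their SEs come from the same fit of all 8 libraries, so the tests are not independent.

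The direction under AZD2811 depended on rescaling. On FPKM as deposited the median of the 33 genes was 0.10 there, while that of all genes tested was 0.26, so the 33 genes were lower than the run of genes on either scale. As deposited, CENPA read 11.5 and 23.3 FPKM in pRB+ AZD2811, 22.8 and 15.4 in pRB+ control, 11.4 and 30.3 in pRB- AZD2811 and 35.9 and 33.6 in pRB- control. The low values of each arm are the libraries rich in RNA without poly(A) tails, and the scaling factors that correct for them ranged from 0.455 to 1.33.

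AZD2811 changed none of the 33 genes past the threshold. In pRB- cells 0 passed (0.0333% of all genes), and 5 were lower and none higher at an unadjusted p under 0.05, where 2.7% of all genes had such a p in either direction. The 5 became 1 without pRB- AZD2811 replicate 1, 1 without pRB- control replicate 1 and 9 without pRB- AZD2811 replicate 2. With all libraries in the fit the 5 were SPC25 at a log2 fold change of -0.33 ± 0.09, MIS18A at -0.28 ± 0.10, PMF1 at -0.24 ± 0.08, CENPH at -0.24 ± 0.08 and CENPN at -0.23 ± 0.09 (limma, adjusted p = 0.992 for each). SPC25 showed this most plainly, with 15.2 and 18.2 scaled FPKM in pRB- AZD2811 against 21.3 and 21.2 in pRB- control. The lower of the treated libraries, replicate 1, is the one rich in RNA without poly(A) tails, and the other was also below both control libraries. In pRB+ cells 0 passed (0.00832% of all genes), and 0 had an unadjusted p under 0.05 (0.683% of all genes), or 2 lower without pRB+ AZD2811 replicate 2 and 1 lower without either pRB- AZD2811 replicate. The medians were -0.14 in pRB- cells, with 26 of 33 below 0, and -0.07 in pRB+ cells (-0.11 on FPKM as deposited), with 27 of 33 below 0. For all genes tested they were -0.012 and -0.0039, with 53.53% and 52.21% below 0.

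Over both arms, AZD2811 against control gave 0 calls among the 33 genes and in the whole table (0%), and 9 of the 33 were lower at an unadjusted p under 0.05, where 3.55% of all genes had such a p. The 9 became 3 without pRB+ AZD2811 replicate 1, and 5 without replicate 1 of pRB- AZD2811 or either pRB- control library. SPC25 at -0.26 ± 0.06 and MIS18A at -0.24 ± 0.06 had the largest log2 fold changes of the 9 (limma, adjusted p = 0.965 for each). Whether AZD2811 acted differently with and without pRB was asked by an interaction term, which called 0 of the 33 (0.0166% of all genes), with 0 at an unadjusted p under 0.05 (0.641% of all genes). The comparisons of AZD2811 in pRB- cells and of pRB in control cells share the pRB- control libraries, where 25 of the 33 genes had their highest group mean. The pRB+ AZD2811 group had the lowest mean in 23 of 33. No share of all genes was taken for the highest and lowest group means.

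**Figure D5:**
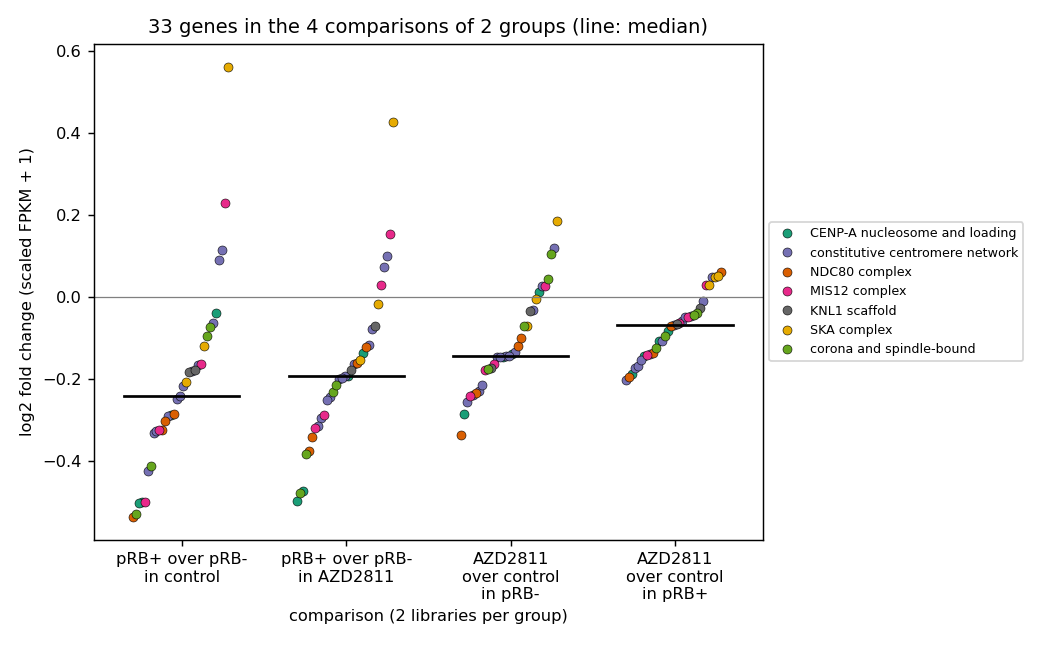
Log2 fold change of the 33 genes (vertical axis, log2 of scaled FPKM plus 1) in the 4 comparisons of 2 groups with 2 libraries each, coloured by role, sorted within each comparison, with a line at the median. The medians are -0.24 and -0.19 for pRB+ over pRB- in control and under AZD2811, and -0.14 and -0.07 for AZD2811 over control in pRB- and pRB+ cells; the median of -0.19 is 0.10 on FPKM as deposited.

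Genes that work beside these 33 were read from 4 further lists, each over 4 libraries per arm. Over all genes tested, 5.81% fell and 5.34% rose, with a median log2 fold change of -0.0083. Of 14 other centromere and CENP-A deposition genes tested, 3 fell and 1 rose, with a median log2 fold change of -0.03. CENPC, the scaffold that links CENP-A to the MIS12 complex, averaged 3.98 ± 0.528 in pRB+ and 5.16 ± 0.486 in pRB- libraries (SD, n = 4 each), a log2 fold change of -0.31 ± 0.07 (limma, adjusted p = 0.0376). The other genes that fell were the histone chaperones RBBP4 and RBBP7, and CENPBD1 rose. CENPU, a partner of CENP-O, CENP-P and CENP-Q, had a log2 fold change of 0.16 ± 0.08 without passing (limma, adjusted p = 0.218).

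Of the 9 genes of the inner centromere and passenger complex, 7 fell and none rose, with a median of -0.35. For this list and those below, the shares of all genes tested were again 5.81% lower and 5.34% higher, with a median of -0.0083. KIF2C, a kinesin that takes microtubule ends apart, averaged 43.3 ± 4.28 in pRB+ and 72.2 ± 7.99 in pRB- libraries (SD, n = 4 each), a log2 fold change of -0.72 ± 0.09 (limma, adjusted p = 0.0238), and CDCA8 and PLK1 fell by 0.35 and 0.40 on the log2 scale. Of 18 checkpoint and corona genes, 5 fell (KNSTRN, BUB1, BUB3, TTK and NDE1) and 1 rose (DYNLL1), with a median of -0.04. KNSTRN encodes SKAP, the partner of SPAG5, and had a log2 fold change of -0.41 ± 0.05, beside -0.40 ± 0.06 for SPAG5. Of 24 DNA replication genes, listed as an S phase reference, 13 fell and none rose, with a median of -0.26, beside -0.21 for the 33 genes. Whether these 24 genes followed the share of cells in S phase was not tested, nor was their part in the result.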

How the data were processed

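RNA of 8 NCI-H82 libraries (4 groups of 2; 100000 cells per mL, 500 ng total RNA, per the labels' protocols) was measured by stranded total RNA sequencing. The deposited values are the authors' FPKM for each gene in each library. STAR 2.5.1b, Cufflinks 2.2.1 and hg19 are named in the submitters' processing notes without roles; annotation and strand setting are not given in the sources used here. The inhibitor is AZD1152 in the titles and AZD2811 elsewhere in the labels. The series text calls replicates biological, so p-values cover no more than the variation among these 8 samples.

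The 28 rows whose names had become dates were left out. Libraries were rescaled by their trimmed mean log ratio against a library of geometric means, dropping 30% of ratios and 5% of levels from either end. Genes that averaged 1 scaled FPKM or more over all libraries entered limma 3.58.1 in R 4.3.3 on log2 of the value plus 1, with an intensity trend and Benjamini-Hochberg adjustment over 12013 genes. This scale understates changes of low genes. Comparisons over both treatments used additive terms (5 residual degrees of freedom), the others 4 group means (4). The fits were tested on simulated data. Since values are FPKM, the count model written in the design was not used. Depth was estimated from single-fragment steps of low values and covers counting error only.

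Values in every library are given, in each role, for CENPA, CASC5 and NDC80, for up to 3 further genes with the smallest unadjusted p over both treatments and for any called gene of opposite direction, and the other genes are given by counts and ranges. Genes, lists and tests were chosen with earlier results of these data known. Exon overlaps come from GENCODE 29 and promoters from RefSeq on GRCh38.p14, neither of them the build named in the notes. Same-numbered replicates did not deviate together in all pairs of groups (correlations from -0.456 to 0.474, and from -0.129 to 0.542 without small RNA and histone genes). Alternatives were other scalings, filters, a pseudocount of 0.1, fits, gene sets, a library type term and single libraries left out. Figures used Python 3.11.15 and matplotlib 3.10.9.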

Additional observations from a re-analysis of the deposited data

Results flagged for a closer look

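In each arm of 4 libraries the highest or lowest library of each of the 33 genes was compared with its neighbours, 66 arms in all, and 2 stood far from the rest by Dixon's test at the 95% level; chance marks about 1 in 20. OIP5 read 20.8 scaled FPKM in pRB+ control replicate 1, against 18.2 to 18.3 in the other pRB+ libraries. ITGB3BP read 21.2 in pRB+ AZD2811 replicate 1, one of the libraries rich in RNA without poly(A) tails, against 27.1 to 27.8 in the other pRB+ libraries. Neither gene passed the test of pRB+ against pRB-. Each arm pools AZD2811 and control libraries, since groups of 2 are too small for this test.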

How the results depend on the processing

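The 12 calls among the 33 genes for pRB+ against pRB- over both treatments were 0 on FPKM as deposited, 6 with no filter, 0 in a fit of 4 group means, 0 among libraries with little RNA that lacks poly(A) tails, and between 0 and 14 with a library left out (0 without replicate 1 of any group or replicate 2 of pRB- control). Fits on the other scaling, filter, pseudocount, gene set or spread setting, or with a library type term, gave 12 to 16, and a threshold of 0.1 gave 18. With the replicate block, fitted although the numbers were not shown to pair the samples, there were 14 calls over both treatments, and 0 in the other comparisons. The median log2 fold change for pRB+ against pRB- over both treatments lay between -0.24 and -0.18 in every alternative. On FPKM as deposited the other medians moved to -0.56 for pRB+ against pRB- in control, 0.10 under AZD2811, -0.80 for AZD2811 in pRB- cells, -0.11 for AZD2811 in pRB+ cells, -0.44 for AZD2811 over both arms and 0.68 for the interaction. The medians of all genes moved with them, to -0.33, 0.26, -0.64, -0.05, -0.34 and 0.60 in that order. Among libraries with little RNA that lacks poly(A) tails, the numbers lower at an unadjusted p under 0.05 were 12 for pRB+ against pRB- in control, 4 under AZD2811, 2 for AZD2811 in pRB- cells and 2 for AZD2811 over both arms. The 6 other comparisons made no call among the 33 genes under any alternative, and the cause of the lost calls was not tested. The gene set without small RNA and histone genes combined with a library type term was added after seeing the data and gave 16 calls. At 2 libraries per group, small differences of genes as low as NSL1 and CENPP are limited by counting error.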
